A study of Mus musculus with 12 samples.

Results

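Endothelial and blood-spinal cord barrier genes were followed in spinal cord after contusion as a set of 10 genes given by name: CLDN5, PECAM1, CDH5, FLT1, KDR, TEK, TIE1, SLC2A1, ABCB1A and MFSD2A. The genes were taken by symbol for their known roles, with earlier results of these data known, and all 10 were found among the 13647 genes listed above the lesion and the 12338 listed below it. RNA came from male mice, 4 months old at surgery, that express human ApoE4 and received a contusion at thoracic vertebra T9, and cord segments just above (rostral) or below (caudal) the lesion were sequenced 14 days later. The mice were labelled homozygous or heterozygous for synaptojanin, and the 4 groups, with 3 libraries each, were synj1+/+ above, synj1+/- above, synj1+/+ below and synj1+/- below, where synj1+/- mice carry 1 inactive allele of Synj1, the lipid phosphatase synaptojanin 1. Both genotypes carried ApoE4 and both were injured. No sham or ApoE3 libraries were analysed here, so the comparisons are between injured groups, by genotype and by site. The labels do not say that the Synj1 allele is restricted to any cell type, and whole cord segments were used.

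Endothelial cells line the vessels of the spinal cord, and their tight junctions form the blood-spinal cord barrier. Because little crosses between the cells, glucose and lipids are carried through them by transporters, and efflux pumps return drugs and other compounds to the blood. Vessel growth and vessel stability are governed by receptor tyrosine kinases, the receptors for vascular endothelial growth factor (VEGF) and those for the angiopoietins. Contusion tears vessels and opens this barrier, and regrowth of vessels follows in the subacute phase.

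Each gene had 1 value per group, which combines the 3 libraries of that group and was read, from the values themselves, as FPKM (fragments scaled by transcript length and by the upper quartile of each library) plus 1. These values carry no spread between libraries, so no error or test was computed for the differences below, and the p-values that the authors deposited beside them were not used here. Ratios are those of the listed values, synj1+/- over synj1+/+, on the log2(FPKM + 1) scale, which understates the change of low genes. A gene was counted as past the threshold when the 2 group values differed by 1.2-fold or more. By that measure 6.62% of all genes above the lesion were higher and 10.5% lower in libraries labelled synj1+/-, and below the lesion 12.6% were higher and 14.9% lower. The number of reads behind single values is unknown.

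SYNJ1 was higher in libraries labelled synj1+/- at both sites, whereas the paper reported lower synj1 mRNA in such mice by RT-qPCR just above the lesion. It was listed at 1905 in libraries labelled synj1+/+ and 2404 in libraries labelled synj1+/- above the lesion, and at 1847 and 2593 below. Every direction given here therefore depends on the labels of the groups. As checks of the tissue, the neuronal vesicle-fusion gene SNAP25 was listed at 5272 and the astrocyte water channel AQP4 at 2273 below the lesion in libraries labelled synj1+/+, against 33.0 for the endothelial adhesion gene PECAM1. In whole tissue, fewer endothelial cells and less RNA per endothelial cell cannot be told apart.

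The 10 genes did not move as a block. Above the lesion, 7 of 10 were higher in libraries labelled synj1+/-, where 49.0% of all genes were. The median log2 ratio of the 10 was 0.07 beside a median of -0.004 over all genes. Of the 10, 2 were higher past 1.2-fold (KDR and TEK) and 1 was lower (MFSD2A), where 6.62% and 10.5% of all genes were. Below the lesion, 7 of 10 were lower, where 52.8% of all genes were higher. The median of the 10 was -0.14 beside 0.01 over all genes. There 0 of the 10 were higher past 1.2-fold and 1 was lower (CDH5), where 12.6% and 14.9% of all genes were. With so few genes past the threshold, nothing is read from these counts about the set. By direction alone, the VEGF receptors FLT1 and KDR and the receptor TIE1 were higher at both sites, the transporters SLC2A1, ABCB1A and MFSD2A were lower at both sites, and the other 4 (CLDN5, PECAM1, CDH5 and TEK) were higher above and lower below.

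**Figure D1:**
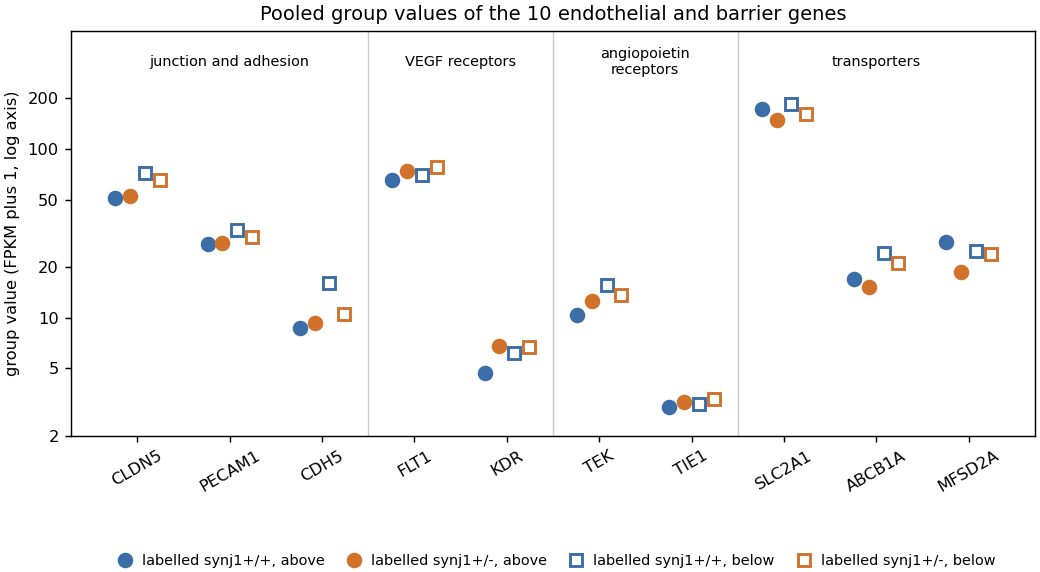
Listed group value (FPKM plus 1, log axis) of each of the 10 genes, grouped by role, in the 4 groups; each symbol is 1 value pooled by the authors from 3 libraries, so there are no error bars. SLC2A1 is the highest in all 4 groups (148 to 186) and TIE1 the lowest (2.93 to 3.28), and CDH5 stands out by its value of 16.1 in libraries labelled synj1+/+ below the lesion.

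The junction and adhesion genes lay close together between genotypes above the lesion and lower in libraries labelled synj1+/- below it. CLDN5, the claudin that seals endothelial tight junctions, was listed at 51.4 in libraries labelled synj1+/+ and 52.8 in libraries labelled synj1+/- above the lesion, a log2 ratio of 0.04. Below the lesion the values were 72.4 and 65.2, a log2 ratio of -0.15. Both values below thus exceeded both values above, and the genotypes differed by less than 1.2-fold at each site. PECAM1, the platelet and endothelial adhesion molecule at cell borders, was listed at 27.4 and 27.7 above the lesion and at 33.0 and 30.2 below. Its log2 ratios were 0.02 and -0.13.

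CDH5 encodes VE-cadherin, which holds endothelial cells together at adherens junctions. It was listed at 8.66 in libraries labelled synj1+/+ and 9.30 in libraries labelled synj1+/- above the lesion, and at 16.1 and 10.6 below. A single group, synj1+/+ below, stood above the rest. The log2 ratio was 0.10 above the lesion and -0.61 below, where the value in libraries labelled synj1+/+ was 1.52-fold that in libraries labelled synj1+/-. Below the lesion 3.97% of genes had a log2 ratio as low or lower. Low genes vary more in these data, and among the genes in the same decile of level as CDH5 below the lesion, 19.6% were lower past 1.2-fold and the 5th percentile of the log2 ratio was -0.65. With a further 10 added to each value the log2 ratio of CDH5 below the lesion was -0.34.

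The receptors for VEGF had higher values in libraries labelled synj1+/- at both sites. FLT1 (VEGFR1), which binds VEGF tightly and signals weakly, was listed at 65.7 in libraries labelled synj1+/+ and 74.3 in libraries labelled synj1+/- above the lesion, and at 70.4 and 78.2 below. Its log2 ratios, 0.18 and 0.15, were nearly the same at the 2 sites, and neither passed 1.2-fold. KDR (VEGFR2), the main signalling receptor for VEGF in endothelium, was listed at 4.67 and 6.82 above the lesion and at 6.14 and 6.71 below. Here libraries labelled synj1+/+ above stood below the rest, with a ratio of 1.46 and a log2 ratio of 0.54 above the lesion and of 0.13 below. Only 1.00% of genes above the lesion had a higher log2 ratio than KDR. KDR was low, at percentile 10.0 of level among the genes listed there, and its log2 ratio lay outside the range of -0.50 to 0.40 that spans the 5th to 95th percentile of genes in the same decile of level. The size for KDR depended on the constant in the scale: its log2 ratio above the lesion was 0.66 with the added 1 taken off and 0.20, no longer past 1.2-fold, with a further 10 added. FLT1, at percentile 67.0 above and 71.5 below, was the more abundant VEGF receptor on the per-length FPKM scale in all 4 groups.

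The promoters of FLT1, KDR and TIE1, the 3 members higher at both sites, are shown, with the 250 bases before a RefSeq start site in build GRCm38.p6. For FLT1 and KDR the window lies inside the RefSeq span of the gene, which ends at 147726438 and 75979072. Distances are from the start used. Capitals mark matches, on either strand, to GGAAGT (a core of the sites of ETS factors, the family that includes the endothelial regulators ERG and FLI1) or to TATAAA, the TATA box.
FLT1 (chr5:147726012-147726261, minus strand): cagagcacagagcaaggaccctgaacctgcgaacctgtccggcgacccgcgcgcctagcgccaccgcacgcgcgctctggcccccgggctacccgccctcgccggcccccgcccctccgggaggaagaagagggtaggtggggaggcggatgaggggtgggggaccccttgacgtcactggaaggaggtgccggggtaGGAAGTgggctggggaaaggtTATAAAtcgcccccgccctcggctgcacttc
KDR (chr5:75978456-75978705, minus strand): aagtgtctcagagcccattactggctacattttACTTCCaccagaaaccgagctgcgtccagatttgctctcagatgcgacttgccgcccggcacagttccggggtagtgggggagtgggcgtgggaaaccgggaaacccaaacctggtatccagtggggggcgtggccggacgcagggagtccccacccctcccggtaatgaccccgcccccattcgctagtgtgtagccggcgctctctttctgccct
TIE1 (chr4:118489850-118490099, minus strand): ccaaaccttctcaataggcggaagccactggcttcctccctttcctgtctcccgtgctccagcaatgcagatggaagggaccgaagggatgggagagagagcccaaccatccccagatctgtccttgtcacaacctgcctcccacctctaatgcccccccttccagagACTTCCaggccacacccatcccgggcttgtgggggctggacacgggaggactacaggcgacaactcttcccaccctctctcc
In the FLT1 promoter GGAAGT begins 52 bases before the start and the TATA box 31 bases before it. KDR holds the ETS core 217 bases before the start, as its reverse complement on the coding strand, and no TATAAA. TIE1 holds it 82 bases before the start, also as the reverse complement.

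RefSeq promoters (250 bases before to 50 after the start) were at hand for 8 of the 10 genes, all but CDH5 and PECAM1. GGAAGT was found in 3 of the 8, those of FLT1, KDR and TIE1, and in 23.8% of all 32851 promoters of that length. A match is a string of letters and not a measured site. The promoters shown, here and further on for the transporters, were picked by the direction of the members in these data. Those of TEK and CLDN5 were searched too and are not shown. Whether any motif goes with a direction was not tested.

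The angiopoietin receptors split by site. TEK (Tie2), the receptor that angiopoietin 1 activates to stabilise vessels, was listed at 10.4 in libraries labelled synj1+/+ and 12.5 in libraries labelled synj1+/- above the lesion. That log2 ratio of 0.26 was just past the threshold, and with a further 10 added to each value it was 0.14 and not past it. Below the lesion it was listed at 15.7 and 13.6, a log2 ratio of -0.21. Both values below were higher than both values above, and the order of the genotypes was opposite at the 2 sites. TIE1, the orphan partner of TEK, was the lowest of the set, listed at 2.93 and 3.17 above and at 3.10 and 3.28 below. Its log2 ratios were 0.11 and 0.08. It lay at percentiles 3.14 and 3.74 of level, where 12.5% of the genes of its decile above the lesion and 17.3% below were higher past 1.2-fold.

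All 3 transporters had lower values in libraries labelled synj1+/- at both sites. SLC2A1 encodes GLUT1, the glucose transporter of barrier endothelium, which astrocytes also use. It was listed at 173 in libraries labelled synj1+/+ and 148 in libraries labelled synj1+/- above the lesion, and at 186 and 161 below. Both values labelled synj1+/- lay below both values labelled synj1+/+. The log2 ratios of -0.22 and -0.21 were of nearly the same size, and neither passed 1.2-fold. SLC2A1 was the most abundant of the set, at percentiles 83.6 and 86.8 of level, where the ratios of genes vary less. Of the genes in its decile, 5.35% above and 7.70% below were lower past 1.2-fold.

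ABCB1A, a gene for the efflux pump P-glycoprotein, was listed at 16.9 and 15.3 above the lesion and at 24.2 and 21.0 below, with log2 ratios of -0.15 and -0.21. Its values below the lesion were higher than those above in both genotypes. ABCB1A has a close paralog next to it on chromosome 5, ABCB1B, and how reads shared by the pair were assigned is not given in the sources used here. ABCB1B was listed at 5.20 and 3.24 above and at 5.11 and 5.98 below, so its log2 ratio was -0.68 above and 0.23 below.

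MFSD2A, the lysolipid transporter that brings docosahexaenoic acid into the nervous system and holds back vesicle traffic across endothelium, differed most among the transporters. It was listed at 28.2 in libraries labelled synj1+/+ and 18.6 in libraries labelled synj1+/- above the lesion, and at 24.8 and 24.0 below. The value labelled synj1+/- above was the low one, and the others lay between 24.0 and 28.2. Above the lesion the value in libraries labelled synj1+/+ was 1.52-fold the other, a log2 ratio of -0.60, and 1.79% of genes had a log2 ratio as low or lower. The 5th percentile in its decile of level was -0.43. Below the lesion the log2 ratio was -0.05.

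The promoters of SLC2A1, MFSD2A and ABCB1A, the 3 members lower at both sites, are shown. Capitals mark ACGTG, the core that hypoxia-inducible factors bind, in SLC2A1 and MFSD2A, and in ABCB1A a SOX and a forkhead string. The window and build are as above.
SLC2A1 (chr4:119108495-119108744, plus strand): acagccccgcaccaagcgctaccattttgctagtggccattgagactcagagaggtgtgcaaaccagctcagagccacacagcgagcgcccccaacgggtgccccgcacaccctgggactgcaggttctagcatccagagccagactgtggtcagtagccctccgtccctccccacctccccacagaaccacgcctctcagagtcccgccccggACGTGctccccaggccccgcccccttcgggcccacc
MFSD2A (chr4:122961189-122961438, minus strand): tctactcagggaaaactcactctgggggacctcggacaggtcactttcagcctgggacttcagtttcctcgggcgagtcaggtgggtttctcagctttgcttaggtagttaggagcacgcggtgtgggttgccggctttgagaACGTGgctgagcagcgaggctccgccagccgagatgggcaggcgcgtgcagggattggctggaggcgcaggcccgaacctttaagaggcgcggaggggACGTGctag
ABCB1A (chr5:8566841-8567090, plus strand): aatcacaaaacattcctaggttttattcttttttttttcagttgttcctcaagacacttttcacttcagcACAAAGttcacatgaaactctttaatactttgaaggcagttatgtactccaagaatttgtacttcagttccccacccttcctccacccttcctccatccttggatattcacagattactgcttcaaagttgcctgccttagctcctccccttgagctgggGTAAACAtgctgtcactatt
SLC2A1 holds the core 36 bases before the start, and MFSD2A holds it 107 and 9 bases before, while ABCB1A does not hold it in this window. Among the 8 promoters these 2 held it, against 19.6% of all promoters. The other motifs searched on both strands were the forkhead string TGTTTAC, found in that of ABCB1A and in 3.65% of all promoters, and the SOX string ACAAAG, found in those of ABCB1A and TEK and in 18.7%. The TATA box, found in 13.6% of all promoters, was in those of FLT1 and SLC2A1, for SLC2A1 in the bases after the start. The palindrome CACGTG matches the hypoxia core on both strands and also holds an E-box.

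**Figure D2:**
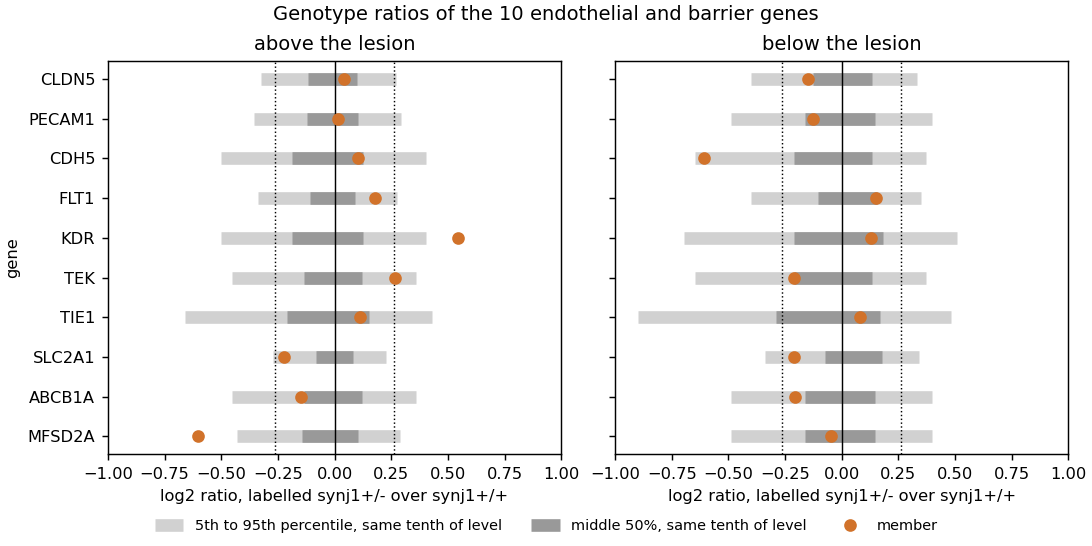
Log2 ratio of libraries labelled synj1+/- over libraries labelled synj1+/+ for each of the 10 genes (points) above and below the lesion, over bars for the genes in the same decile of level; dotted lines mark 1.2-fold. KDR (0.54) and MFSD2A (-0.60) above the lesion lie outside the 5th to 95th percentile of genes of like level, and the 10 points below the lesion lie inside it.

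The genotype ratios at the 2 sites come from different libraries. The log2 ratio below minus that above was -0.71 for CDH5, -0.48 for TEK, -0.42 for KDR and 0.56 for MFSD2A. For the other 6 genes it lay between -0.19 for CLDN5 and 0.01 for SLC2A1. Over the 12023 genes with a single entry at both sites, the 5th percentile of this difference was -0.48, the median 0.02 and the 95th percentile 0.43. CDH5 lay under the 5th percentile and MFSD2A over the 95th, with 2.69% of genes higher than MFSD2A and 2.10% as low as CDH5 or lower. The difference was not tested, since there is no error to test it with. The labels do not tie libraries to mice, but the animal numbers in the paper's methods (3 per genotype, for 3 libraries at each site) leave it possible that both segments came from the same mice.

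Below the lesion, values were higher than above in 9 of the 10 genes in each genotype. The reads of each site were reduced and scaled separately, so levels across sites are given relative to all genes, whose median log2 ratio of below over above was -0.0008 in libraries labelled synj1+/+ and 0.02 in libraries labelled synj1+/-. In libraries labelled synj1+/+ the median of the 10 genes was 0.33. After centring on all genes, 6 were higher below by 1.2-fold or more, where 13.7% of genes were, and 0 were lower, where 11.4% were. CDH5 had a log2 ratio of below over above of 0.89, TEK 0.59, ABCB1A 0.52, CLDN5 0.49 and KDR 0.39, and PECAM1 had 0.27. MFSD2A was the single gene with a lower value below, at -0.19.

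In libraries labelled synj1+/- the median was 0.12, and after centring 3 genes were higher below by 1.2-fold or more, where 8.39% of genes were, and 0 lower, where 8.22% were. These were ABCB1A at 0.46, MFSD2A at 0.37 and CLDN5 at 0.30. KDR was the single gene with a lower value below, at -0.02. CDH5 had 0.18 and TEK 0.11. FLT1, TIE1 and SLC2A1 lay between 0.05 and 0.11 in both genotypes. These comparisons use the same 4 group values as the genotype ratios and are no separate evidence.

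**Figure D3:**
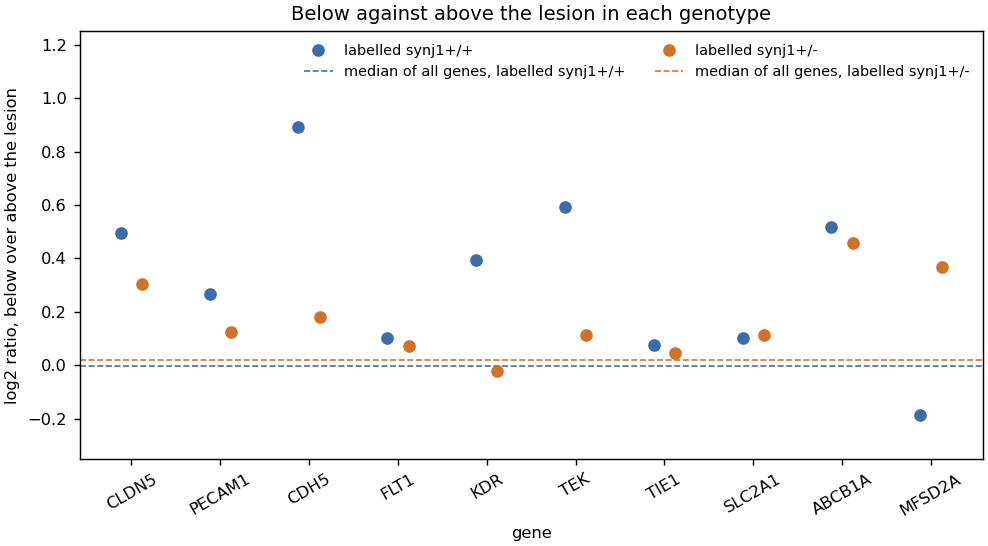
Log2 ratio of the value below over that above the lesion for each of the 10 genes in each genotype, before centring; dashed lines are the medians over all genes (-0.0008 and 0.02). In libraries labelled synj1+/+ 9 points lie above the line and CDH5 is highest at 0.89, and in libraries labelled synj1+/- ABCB1A is highest at 0.46.

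The order of levels on the per-length FPKM scale was similar in the 4 groups. SLC2A1 was highest everywhere, FLT1 and CLDN5 took the next places, MFSD2A, PECAM1 and ABCB1A followed, and CDH5 and TEK lay above KDR, with TIE1 last. FLT1 exceeded CLDN5 above the lesion in both genotypes (65.7 against 51.4 in libraries labelled synj1+/+), while below it CLDN5 led in libraries labelled synj1+/+ (72.4 against 70.4) and FLT1 in the other. No spread between libraries is at hand to say which neighbours differ.

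The 10 genes lie on 5 chromosomes (RefSeq, GRCm38.p6). TEK, TIE1, SLC2A1 and MFSD2A are on chromosome 4, and TIE1, SLC2A1 and MFSD2A lie there between 118471191 and 122961194. ABCB1A, KDR and FLT1 are on chromosome 5, CDH5 on chromosome 8 and PECAM1 on chromosome 11. CLDN5 shares chromosome 16 with SYNJ1, at a distance of 72.2 Mb.

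Other genes of the endothelium and barrier were counted from lists drawn up by function. Of 22 further endothelial identity genes listed above the lesion, 2 were higher past 1.2-fold in libraries labelled synj1+/- and 5 lower, beside 6.62% and 10.5% of all genes. EGFL7, a secreted endothelial factor, was listed at 60.9 and 82.5, and SOX17, an arterial transcription factor, at 64.0 and 83.9. CD34, a sialomucin of endothelium and progenitors, was listed at 47.9 in libraries labelled synj1+/+, with a log2 ratio of -0.41. The surface antigen LY6A was listed at 138 and 110.3.

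Below the lesion, 0 of 23 such genes were higher past 1.2-fold and 7 were lower, beside 12.6% and 14.9% of all genes, and the median log2 ratio was -0.20. The ETS factor FLI1 was listed at 17.8 and 12.5, TAL1, a factor of blood and endothelial development, at 20.8 and 16.7, and ROBO4, a guidance receptor of vessels, at 16.6 and 13.3. The adhesion receptor ADGRL4 was listed at 8.85 and 6.84. EGFL7 and SOX17, the 2 that were higher above the lesion, each had a log2 ratio of -0.20 below it.

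Of the junction genes beside the members, 13 were listed above the lesion, with 0 higher past 1.2-fold and 1 lower, the scaffold TJP1 (ZO-1) at 345 and 282. Of 11 below, 2 were higher and 2 lower. Among all genes, 6.62% were higher and 10.5% lower at the upper site, and 12.6% and 14.9% at the lower. The junctional adaptor CGN (cingulin) was listed at 10.9 and 14.7 and CLDN12 at 68.4 and 82.2, while LSR, the angulin of tricellular contacts, was listed at 34.9 and 26.7 and F11R (JAM-A) at 18.7 and 15.2. OCLN (occludin) had log2 ratios of 0.08 above and -0.11 below.

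Of 15 further transporters listed above the lesion, 1 was higher past 1.2-fold and 2 lower, beside 6.62% and 10.5% of all genes. Of 16 below 0 were higher and 7 lower, beside 12.6% and 14.9%. ABCG2, the efflux pump that works beside P-glycoprotein, was listed at 142 in libraries labelled synj1+/+ and 61.4 in libraries labelled synj1+/- above the lesion, and at 86.0 and 69.1 below. The value labelled synj1+/+ above was far the highest of the 4, and the log2 ratios were -1.21 and -0.31. The transferrin receptor TFRC was listed at 50.1 and 61.3 above the lesion, and SLC3A2, the heavy chain of amino acid exchangers, at 442 and 357. Below the lesion the iron exporter SLC40A1 was listed at 23.7 and 15.5, the organic anion carrier SLCO2B1 at 116 and 94.9 and the efflux pump ABCC4 at 16.3 and 13.1. The median of this list was -0.03 above and -0.22 below.

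Ligands and coreceptors of the VEGF and angiopoietin receptors were counted as well, in a list that also held APLN, APLNR, ANGPTL4 and DLL4. Above the lesion 10 were listed, with 2 higher past 1.2-fold and 0 lower (all genes, 6.62% and 10.5%). The apelin receptor APLNR was among the 2 higher, at 18.3 and 24.0. VEGFA was listed at 362 and 434 above the lesion, just short of 1.2-fold, and was not listed below. Below the lesion 9 were listed, with 0 higher and 3 lower (all genes, 12.6% and 14.9%). The 3 were ANGPT1, the ligand of TEK, at 16.3 and 11.7, the VEGF coreceptor NRP1 at 61.4 and 43.2, and ANGPTL4 at 6.38 and 3.94. Of the Wnt and Norrin signalling genes that maintain the barrier, 1 of 15 was higher and 1 lower above the lesion. LEF1, a nuclear effector of that pathway, was listed at 16.7 and 25.3, and the coreceptor LRP5 at 7.85 and 6.45. Below the lesion 0 of 13 were higher and 4 lower, with TSPAN12, a partner of the receptor FZD4, at 153 and 118, FZD6 at 29.5 and 23.0 and the Wnt inhibitor APCDD1 at 15.9 and 12.2.

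For genes of transcytosis and activated endothelium, 0 of 9 passed 1.2-fold above the lesion, where 6.62% of all genes were higher and 10.5% lower. Below it 1 of 9 was higher and 3 lower, beside 12.6% and 14.9% of all genes, with CAVIN1, a coat protein of caveolae, at 74.6 and 45.9 and the leukocyte adhesion molecule ICAM1 at 11.4 and 8.92. PLVAP, the diaphragm protein of leaky vessels, was listed at 9.56 and 12.6 below the lesion and had a log2 ratio of -0.03 above.

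Genes of the vessel wall around the endothelium were counted in the same way, beside 6.62% higher and 10.5% lower of all genes at the upper site, and 12.6% and 14.9% at the lower. Of 11 basement membrane genes, 0 were higher and 9 lower past 1.2-fold below the lesion, with a median log2 ratio of -0.75, and 0 were higher and 3 lower above it, with a median of -0.05. The FPKM summed over the list was 1077 and 1022 below the lesion, most of it from agrin (AGRN), which neurons also make, at 845 and 903. The collagen chain COL4A1 was listed at 41.2 and 16.3, perlecan (HSPG2) at 87.8 and 36.5, nidogen 1 (NID1) at 14.4 and 6.62 and the laminin chain LAMC1 at 22.1 and 12.9, all below the lesion. Genes listed for fibroblasts had a median log2 ratio of -2.71 at that site. The part of fibroblasts in the basement membrane and mural cell values was not tested. Of 11 mural cell genes (pericytes and smooth muscle), 3 were higher and 0 lower above the lesion, where HIGD1B was listed at 8.90 and 14.3 and RGS5 at 57.7 and 70.1, both pericyte markers. Below the lesion 1 was higher and 5 lower, with the pericyte receptor PDGFRB at 25.8 and 18.3 and the peptidase ANPEP at 13.2 and 7.61. The smooth muscle genes TAGLN, at 16.9 and 13.0, and ACTA2, at 7.00 and 5.33, were also lower. Other mural genes were higher or nearly level there: ABCC9, a channel subunit of pericytes, was the 1 higher past 1.2-fold, at 16.7 and 20.1, and the log2 ratio was 0.01 for its partner KCNJ8, -0.03 for HIGD1B and -0.16 for RGS5.

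Markers of other cells differed between the same groups, and the part of these cells in the values of the members and of the other lists was not tested. Their counts stand beside 6.62% higher and 10.5% lower of all genes above the lesion, and 12.6% and 14.9% below. The FPKM summed over 11 fibroblast genes below the lesion was 1555 in libraries labelled synj1+/+ and 443 in libraries labelled synj1+/-, with 11 of 11 lower past 1.2-fold. Over 12 above it was 438 and 318, with 8 lower. Single genes weighed heavily in these sums: IGF2 was listed at 905 and 306 below, and FN1, not listed below, at 230 and 159 above. Microglia and macrophage genes summed to 2901 and 2155 above (6 of 12 lower) and to 3971 and 2560 below (11 of 11 lower). Red blood cell genes summed to 248 and 1133 above and to 629 and 825 below, with 5 of 5 higher at each site. In neurons, 0 of 12 genes above were higher and 1 lower, and the sums were 10186 and 11508. Below, 5 of 11 neuronal genes were higher and 0 lower, and the sums were 8743 and 11077. SNAP25 alone was listed at 5272 and 6929 there. Astrocyte endfoot genes summed to 7166 and 6229 over 9 genes above (0 higher, 2 lower) and to 6088 and 5478 over 7 below (0 higher, 1 lower). Where the numbers of listed genes differ, the sums are not compared between sites. Oligodendrocyte genes, with 4 of 8 listed, had 0 past 1.2-fold at either site. No marker of these lists was listed at an FPKM of 0. For comparison, the FPKM summed over the 10 members was 380 and 359 above the lesion and 442 and 403 below. SLC2A1 alone gave 172 and 147 of these sums above the lesion and 185 and 160 below.

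**Figure D4:**
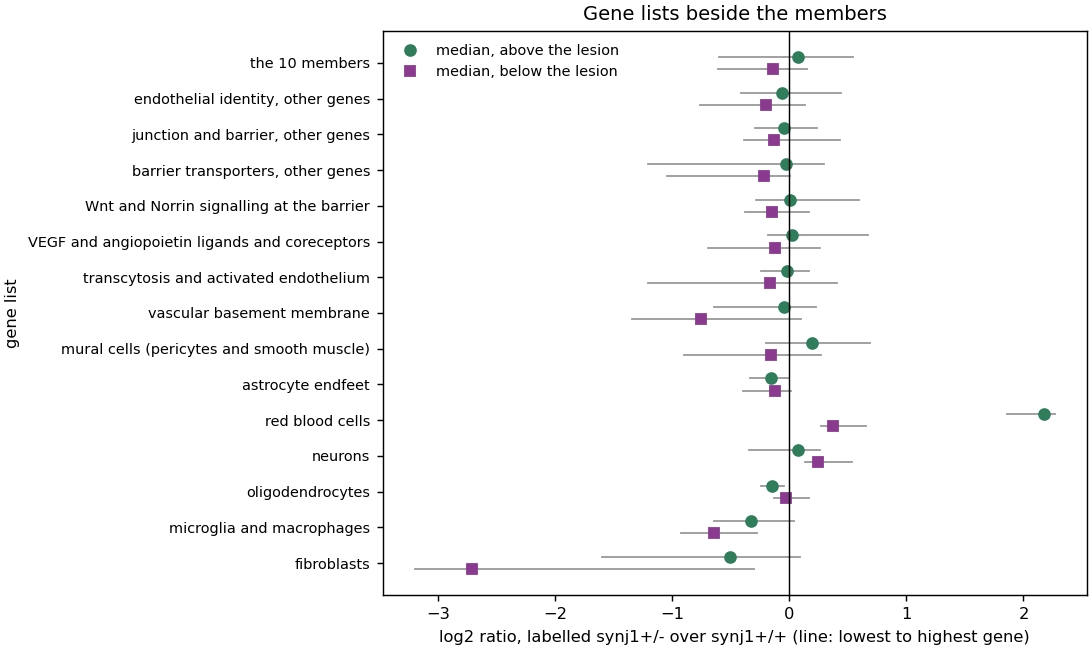
Median log2 ratio (labelled synj1+/- over synj1+/+) of the 10 members and of 14 other gene lists above (circles) and below (squares) the lesion, with a line from the lowest to the highest gene. The medians of the members are 0.07 above and -0.14 below, and several other lists lie nearer 0. The red blood cell list above (2.17) and the fibroblast list below (-2.71) lie farthest from 0.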

How the data were processed

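RNA of cord segments from 12 libraries in 4 groups was sequenced by the authors. Per the labels and the paper's methods, reads of each site were reduced at random to the smallest library, aligned with STAR 2.5.4b to GRCm38.p6 and summarised with Cuffdiff 1.3.0 under upper quartile normalization. The deposited table, with 25985 rows, gives 1 pooled value per group. It was read as FPKM plus 1, because the lowest value is exactly 1 and the printed decimals are those of a 6-digit number plus 1. The table also holds the authors' fold changes, p-values and q-values, and a shorter table holds only those; none were used. There are 0 columns of single samples, so p-values and errors could not be computed.

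Groups came from the sample descriptions. Rows were matched to the members by symbol, and all 13647 and 12338 genes of the sites served as background. The ratio steps were tested on simulated data. The named genes are the 10 members, SYNJ1, APOE, and in each companion list at most 4 genes per site past 1.2-fold with a listed value of at least 5 in both groups. Genes named for context after their values were seen are ABCB1B, OCLN, AGRN, ABCC9, KCNJ8, ACTB, VEGFA, APLN, ANGPTL4 and DLL4. The members and lists were chosen with earlier results of these data known. Promoters came from RefSeq. Python 3.11.15, numpy 2.4.6, pandas 2.3.3 and matplotlib 3.10.9 were used.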

Additional observations from a re-analysis of the deposited data

How the results depend on the processing

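The median log2 ratio of the members kept its direction at both sites under every alternative tried: 1 taken off each value, 10 added, centring on all genes or on genes listed at 100 or more, the mean, and leaving out ABCB1A or members under 10. It ranged from 0.02 to 0.10 above the lesion and from -0.19 to -0.11 below. Counts followed the threshold. At 1.5-fold 0 members were higher above the lesion in place of 2, and at 1.1-fold 3 were lower above, 1 was higher below and 5 were lower below. The share of all genes past 1.1-fold or 1.5-fold was not counted, so nothing is read from these counts about the set. Below the lesion the lower quartile of the log2 ratio over all genes was -0.15, itself past 1.1-fold. Of 60 values of single members under alternatives, 55 moved by at most 0.1. A constant added to or taken off both values cannot turn the sign of a ratio. The medians used for centring on all genes, -0.004 and 0.01, were smaller in size than every member ratio of their site. The signs of single members, and the direction of the median with a constant added or taken off, are therefore no check. The 5 that moved were low or mid-level genes, and KDR above the lesion went from 0.66 with 1 taken off to 0.20 with 10 added. With 10 added, MFSD2A above was -0.42, TEK above 0.14 and CDH5 below -0.34. Because each group has 1 value, leaving out single libraries was not possible. No paired analysis was possible because the table holds no values of single libraries.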

Other observations

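SYNJ1, a gene of synaptic vesicle recycling, was listed at about the level of the cytoskeletal gene ACTB (beta-actin). Above the lesion ACTB was listed at 1854 in libraries labelled synj1+/+ and 1823 in libraries labelled synj1+/-, beside 1905 and 2404 for SYNJ1. Below the lesion ACTB was listed at 1932 and 1802. APOE was listed at 767 and 549 above the lesion and at 477 and 564 below. The mice express human ApoE4 and the reads were aligned to the mouse genome, so how well these values measure APOE is unknown. The listed genotype order differed between the sites, which was not tested.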
